A study of Mus musculus with 3 samples.

Results

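Clusters of strong PU.1 peaks were described in i660BM cells, cultured mouse pro-B cells (C57BL/6) grown with IL-7 in which doxycycline switches on PU.1. After 24 h of doxycycline at 70 ng/ml, chromatin was pulled down with a rabbit polyclonal PU.1 antibody and sequenced (ChIP-seq). The PU.1 libraries, both induced, are numbered 2 and 3. The labels do not tie them to separate cultures, so differences between them may be technical. The remaining library was input DNA, labelled with no antibody and no treatment, and uninduced chromatin was not analysed here, so signal that depends on the induction cannot be told apart from signal that does not. Replicate 2 had 74494 peaks and replicate 3 had 6169, so replicate 3 is a far shorter list. The authors' peak caller scored each peak, and the score was taken to be the p-value as 10 times its negative log10. The value 3100 recurs exactly in replicate 2 and is treated as a ceiling, which few peaks exceed.

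A cluster was defined from replicate 2 alone. Peaks with a score of 1000 or more, called strong here, were joined wherever the gap between neighbours on a chromosome was at most 12.5 kb, and groups of 4 or more peaks were kept. Of 13109 strong peaks, 504 fell into 114 clusters, and the other 12605 stood alone or in groups of 2 or 3. The replicate 2 scores and positions chose the members, so they are given as a description. Coordinates are 1-based on GRCm38 (mm10).

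The ETS-family protein PU.1 is the product of Spi1. It binds purine-rich sites around a GGAA core and is used in both B cells and myeloid cells, where it acts at promoters and at distal enhancers. Several binding sites close together are a known property of strongly regulated genes, and joining neighbouring peaks is a common way to list such stretches. The joining takes only distance into account and does not show that the peaks of a cluster act together or on the gene they overlap.

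Promoter sequences show what such peaks can lie on. RefSeq promoter windows of GRCm38 cover 250 bases before to 50 bases after an annotated start, and 85 windows of 68 genes lay under a clustered peak. Of these windows, 11 held the letters GAGGAAGT on either strand, a stretch around the GGAA core that PU.1 prefers. Protein-coding genes whose window held them and whose peak was also found in replicate 3 numbered 8. Printed here are 5 of those, chosen after their values were seen because the genes are known in blood cell signalling. Capitals mark GAGGAAGT or its reverse complement, and each sequence reads 5′ to 3′ on the strand of its gene.
Inpp5d: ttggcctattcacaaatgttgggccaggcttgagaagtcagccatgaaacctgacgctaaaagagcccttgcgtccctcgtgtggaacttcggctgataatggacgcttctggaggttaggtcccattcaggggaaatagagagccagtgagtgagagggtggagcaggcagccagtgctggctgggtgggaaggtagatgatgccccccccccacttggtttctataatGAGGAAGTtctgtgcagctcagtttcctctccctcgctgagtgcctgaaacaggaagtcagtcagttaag
Ccdc88b: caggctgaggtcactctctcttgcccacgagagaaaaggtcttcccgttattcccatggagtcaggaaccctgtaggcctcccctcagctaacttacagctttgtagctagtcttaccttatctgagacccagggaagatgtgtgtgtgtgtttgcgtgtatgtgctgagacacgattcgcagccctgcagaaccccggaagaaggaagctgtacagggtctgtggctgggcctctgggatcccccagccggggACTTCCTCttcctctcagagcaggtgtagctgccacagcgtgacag
Grb2: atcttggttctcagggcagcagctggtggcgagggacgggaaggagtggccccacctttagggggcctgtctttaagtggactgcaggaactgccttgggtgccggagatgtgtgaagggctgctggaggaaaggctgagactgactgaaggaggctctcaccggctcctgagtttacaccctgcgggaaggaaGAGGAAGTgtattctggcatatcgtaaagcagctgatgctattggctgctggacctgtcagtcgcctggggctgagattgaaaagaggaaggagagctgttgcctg
Pik3cg: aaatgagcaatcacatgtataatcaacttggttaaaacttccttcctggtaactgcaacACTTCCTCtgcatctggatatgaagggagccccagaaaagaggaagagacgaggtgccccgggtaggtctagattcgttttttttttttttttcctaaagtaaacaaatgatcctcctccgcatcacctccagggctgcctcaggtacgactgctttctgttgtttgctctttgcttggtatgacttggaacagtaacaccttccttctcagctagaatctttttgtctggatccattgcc
Nfkbid: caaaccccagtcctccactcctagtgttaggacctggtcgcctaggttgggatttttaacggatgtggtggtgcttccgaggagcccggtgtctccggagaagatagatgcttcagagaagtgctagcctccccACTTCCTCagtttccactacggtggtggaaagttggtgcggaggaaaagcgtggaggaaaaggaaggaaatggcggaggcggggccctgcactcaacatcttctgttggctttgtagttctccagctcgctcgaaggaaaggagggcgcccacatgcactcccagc

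The Inpp5d window lies at chr1:87620062-87620361 on the plus strand, and its match begins 20 bases before the annotated start. The Ccdc88b window (chr19:6858162-6858461, minus strand) carries its match just past the start, as the reverse complement. The Grb2 window (chr11:115699485-115699784, minus strand) belongs to a start inside the gene span, with the match 56 bases before it. The Pik3cg window (chr12:32208421-32208720, minus strand) has the match 191 bases before the start, and the Nfkbid window (chr7:30423025-30423324, plus strand) has it 116 bases before. The peaks over these windows scored 2821, 3100, 2855, 3100 and 3100 in replicate 2, in the printed order, and 167, 181, 279, 782 and 215 in replicate 3.

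The motif was about as frequent under clustered peaks as under other strong peaks. GAGGAAGT was found in 12.9% of the 85 windows under clustered peaks (exact 95% interval 6.64 to 22.0) and in 12.0% of 2366 windows under strong peaks outside clusters (10.8 to 13.4). Over all 32817 windows the share was 3.20%, and under no replicate 2 peak it was 2.38%. The shorter GAGGAA, which GAGGAAGT contains, was present in 48.2% of windows under clustered peaks (37.3 to 59.3), 41.4% under other strong peaks and 28.3% of all windows. A match is a run of letters and not a measured site, windows of 1 gene can overlap, and chromosome 18 was not analysed for promoters.

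The clusters were mostly small. There were 82 clusters of 4 peaks, 21 of 5, 8 of 6, 2 of 7 and 1 of 9. Spans ran from 7.09 to 65.4 kb with a median of 21.9 kb. Together they covered 2669 kb. Gaps between neighbours had a median of 4.16 kb. Peaks of the cluster itself filled a median of 30.0% of its span, and 168 weaker replicate 2 peaks lay between them. Just inside the rule, the lowest member scored 1000.23 and the widest gap was 12.458 kb; just outside, the next peak scored 999.93 and the next gap was 12.502 kb. The 327 groups of 3 peaks missed the size limit. Their highest summed score was 9421, at Klhl18, and the lowest summed score of a cluster was 5424, at Myadm, so the summed scores of kept and left groups overlap.

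The longest cluster, with 9 peaks over 65.4 kb, lay at chr13:56133483-56198891 from Macroh2a1, the gene of the histone variant macroH2A1, across Tifab. Replicate 2 scores there ran from 1130 to 3100. Replicate 3 had 4 of the 9 peaks, with scores of 91.0, 71.4, 253 and 166. All 4 lay nearer to Tifab than to Macroh2a1, and the 3 peaks nearest Macroh2a1 had none.

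The second cluster (chr2:144213199-144247967) held 7 peaks and overlapped no annotated gene. Snx5, which encodes a sorting nexin of endosomal transport, was the nearest protein-coding gene at 2.16 kb. Of its peaks, 3 were found in replicate 3, with scores of 87.2, 111 and 107. The third cluster (chr17:35822659-35871260) also held 7 peaks and crossed the spans of 6 genes, from Ier3 to Ppp1r18, among them Tubb5, a beta-tubulin gene, and Mdc1, a DNA damage checkpoint gene. Its 2 matched peaks, scored 169 and 270 in replicate 3, both lay at Ppp1r18, which encodes an actin-binding phosphatase regulator.

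**Figure D1:**
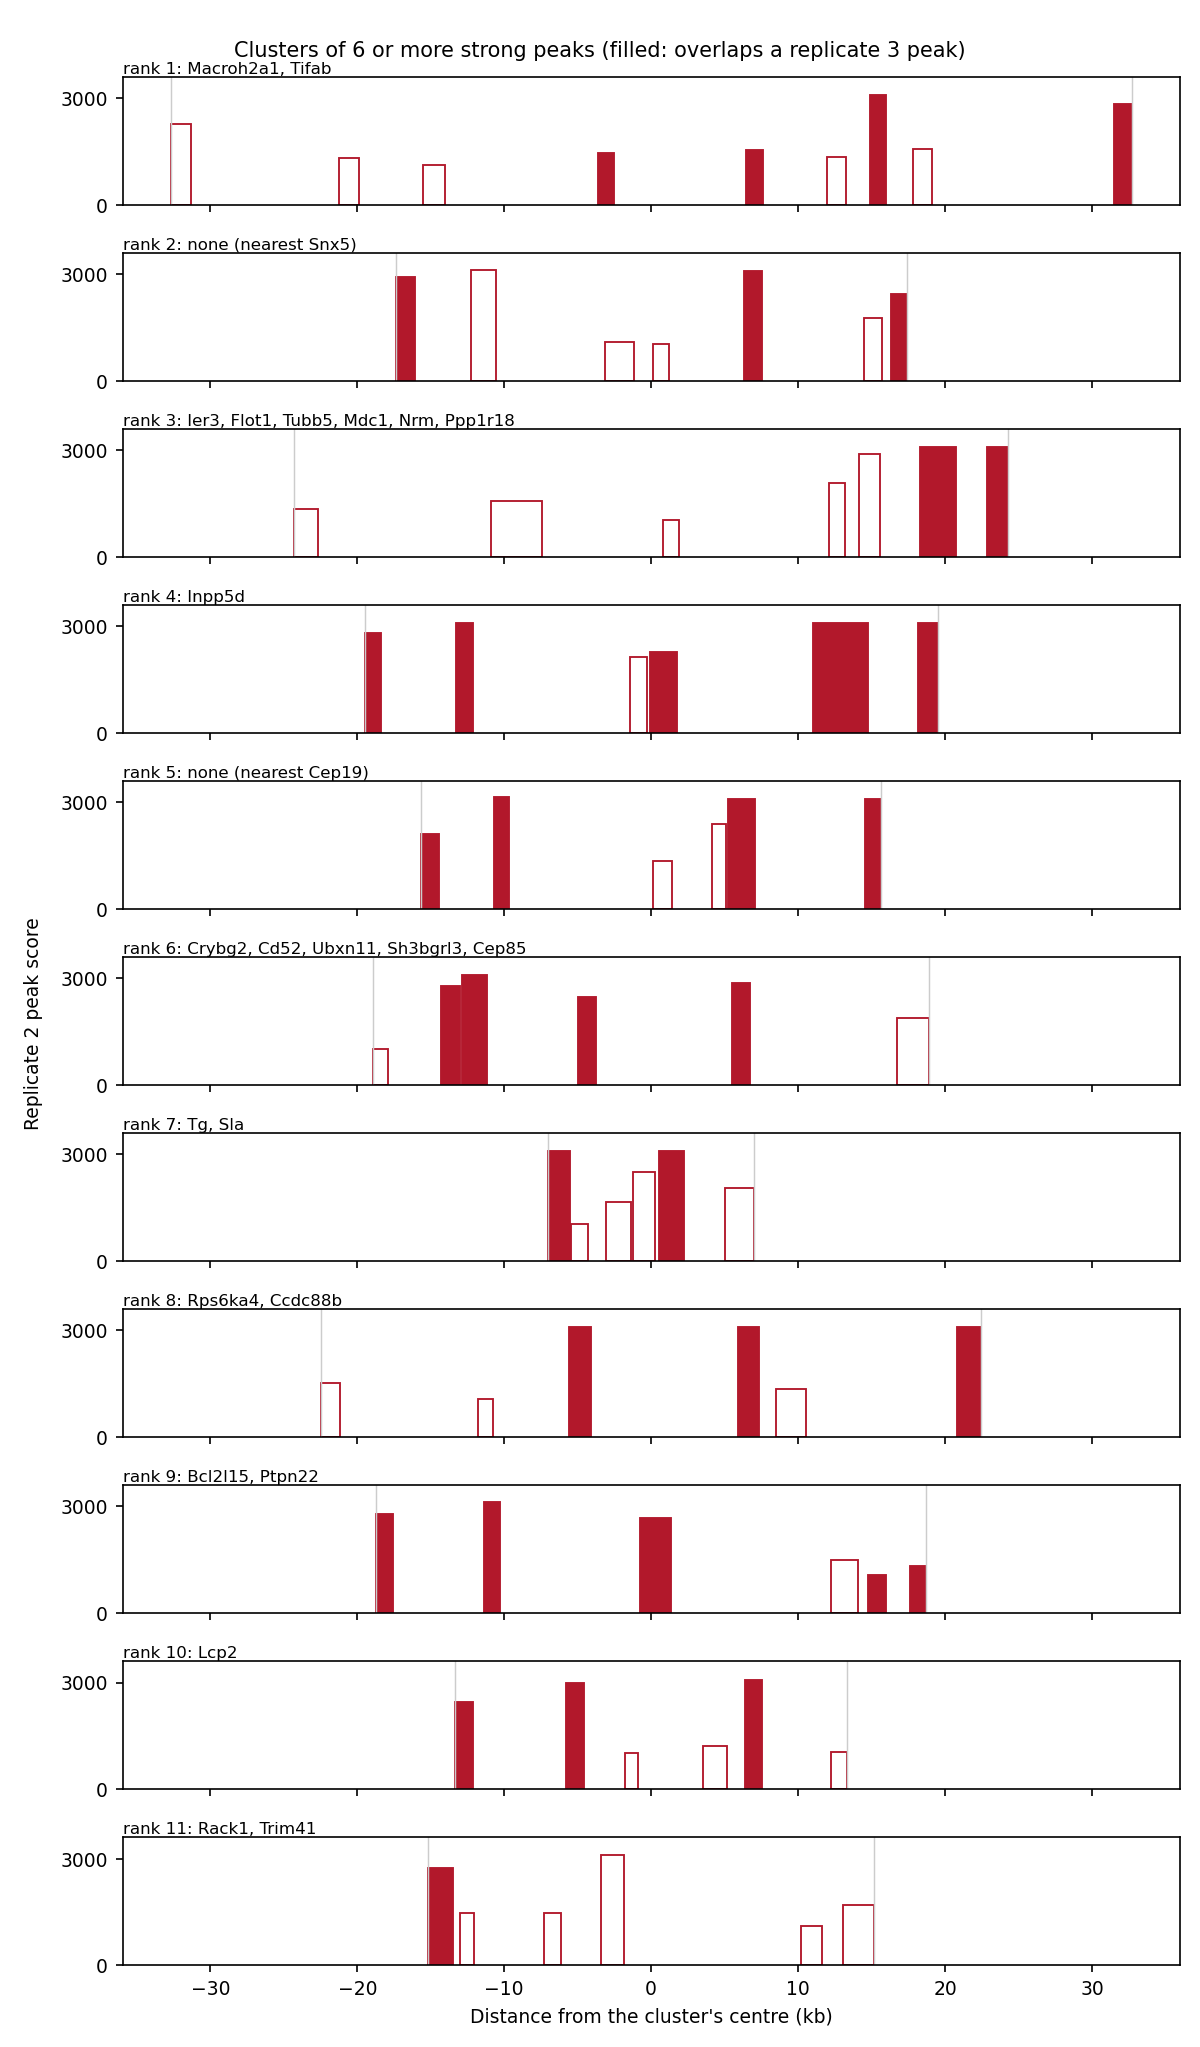
Replicate 2 peak score (vertical axis) against distance from the cluster's centre in kb (horizontal axis) for the 11 clusters of 6 or more peaks, ranked by number of peaks and then summed score. Each bar is 1 strong peak at its called width, filled bars overlap a replicate 3 peak, open bars do not, and grey lines mark the ends of the cluster; titles name the overlapped protein-coding genes. Filled and open bars occur in each of the 11 clusters.

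Peaks inside and outside clusters were found in replicate 3 about equally often. A replicate 3 peak overlapped 235 of the 504 clustered peaks (46.6%, exact 95% interval 42.2 to 51.1). It overlapped 5841 of the 12605 strong peaks outside clusters (46.3%, 45.5 to 47.2). Over all replicate 2 peaks the share was 8.24%, so strong peaks of either kind were matched more often than peaks in general. With the outside peaks weighted to the score bins of the clustered ones, their share was 48.7%. There is 1 library on each side and peaks of 1 cluster share their source, so no test across samples was possible and the intervals cover counting error only.

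The match followed the replicate 2 score in both sets. Among clustered peaks, 9.62% were matched at scores from 1000 to 1500, 24.1% from 1500 to 2000, 72.3% from 2000 to 3100 and 93.4% at 3100 or more. The corresponding shares outside clusters were 8.85%, 32.3%, 71.1% and 97.2%. The intervals overlapped in each bin. Between 1500 and 2000 they were 16.5 to 33.1 for clustered peaks and 30.5 to 34.1 outside, and at 3100 or more they were 86.9 to 97.3 and 96.5 to 97.8.

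**Figure D2:**
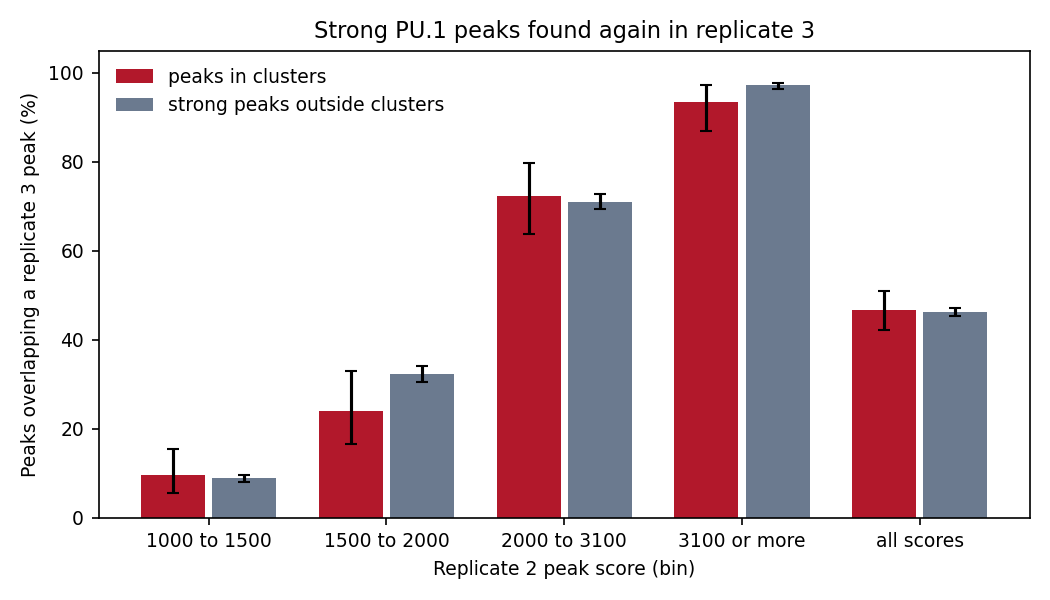
Percent of strong replicate 2 peaks that overlap a replicate 3 peak, by bin of replicate 2 score, for peaks in clusters (left bars) and strong peaks outside clusters (right bars). Whiskers are exact 95% intervals; the lowest-score bars stand at 9.62% and 8.85%, the highest-score bars at 93.4% and 97.2%, and the all-score bars stand at 46.6% and 46.3%.

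Within clusters the same order held. The strongest peak of a cluster by replicate 2 score was matched in 99 of 114 clusters (86.8%, 79.2 to 92.4), the next strongest in 69, the third in 37 and the weakest in 17 (14.9%, 8.93 to 22.8). Scores of 3100 act as a ceiling, so ties there were broken by position. The few peaks above 3100 were ranked before those at 3100, so the order among such peaks is uncertain. By place along the cluster, 47.8% of first and last peaks were matched (41.2 to 54.5) and 45.7% of inner peaks (39.7 to 51.7), with overlapping intervals. Over the 235 matched peaks the scores of both libraries had a Spearman correlation of 0.69, and over the 136 of them under 3100 it was 0.52; these are descriptions across peaks of the same 2 libraries.

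Nearly every cluster had some signal in replicate 3. At least 1 peak was matched in 109 of 114 clusters (95.6%, 90.1 to 98.6), and 2 or more in 76 (66.7%). A cluster offers 4 or more peaks, and 46.3% of strong peaks outside clusters were matched. More peaks give more occasions for 1 match, and how far the high share follows from the size limit was not tested. No share for sets of other strong peaks of like size was computed. Every peak was matched in 4 clusters (3.51%, 0.964 to 8.74), all of 4 peaks, among them those at Grb2, Pdxk and Prex1. Pdxk encodes pyridoxal kinase and Prex1 an exchange factor for Rac. No peak was matched in 5 clusters. In rank order these lay at Alg14, at Cep170 and Sdccag8, near Dusp22, across Daxx, Zbtb22, Tapbp and Rgl2, and at Myadm. The Alg14 cluster included 1 peak at 3100, and in the other 4 the highest score was 1988.

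**Figure D3:**
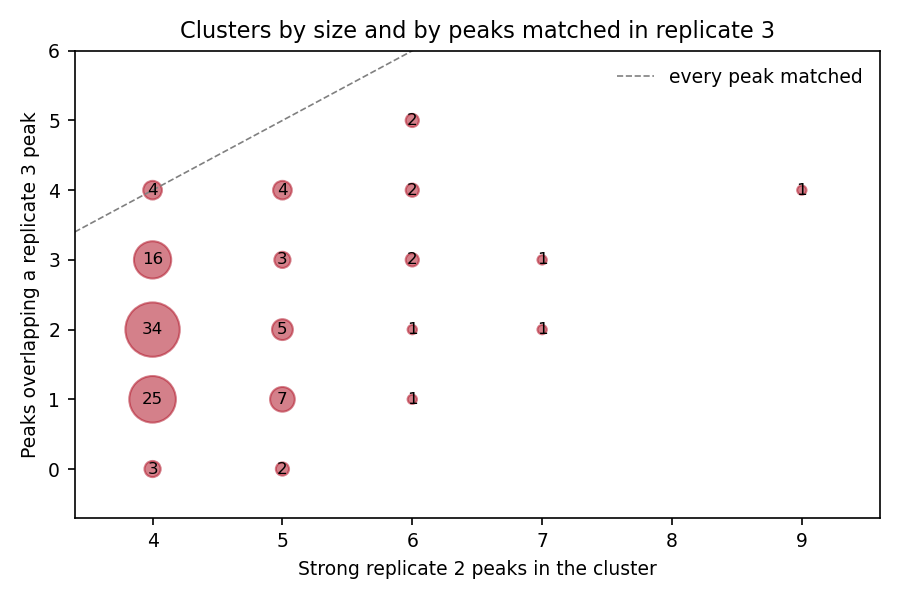
Number of peaks overlapping a replicate 3 peak (vertical axis) against number of strong replicate 2 peaks (horizontal axis) for the 114 clusters. Circle area and the printed figure give the number of clusters, and the dashed line marks clusters with every peak matched, where 4 clusters of 4 peaks lie; 34 clusters of 4 peaks had 2 matched.

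Joined by the same gap and size limit with no score minimum, the replicate 3 peaks alone formed 11 clusters of 4 or 5 peaks. Of these, 10 overlapped a replicate 2 cluster. Among them were clusters at Inpp5d, Grb2, Pdxk, Ubxn11, Prkcd, Junb, Prkca and Prex1, and at a stretch on chromosome 5 that meets lncRNA genes and has Spring1 as its nearest protein-coding gene. The eleventh, at chr3:43937167-43945039, overlapped no protein-coding gene and no replicate 2 cluster. Peaks are listed per library, and both libraries share the antibody and the cell line. Of the 6139 replicate 2 peaks that a replicate 3 peak overlapped, 6076 were strong. Groups of replicate 3 peaks thus mostly fall on strong replicate 2 peaks joined by the same gap. The overlap of the 2 sets of clusters is a description and not independent support.

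In replicate 3 the summed score over a cluster ran from 0 to 1888 with a median of 297. The highest was at Actb, the gene of beta-actin, chosen here after its values were seen. The Actb cluster (chr5:142905299-142929845) had replicate 2 scores of 3100, 3100, 1493 and 3100. In replicate 3 its peaks scored 117, 1555 and 216, and the peak at 1493 had none. The peak scored 1555 lay beyond the Actb span. Next came a cluster 7.72 kb from Foxk1, with replicate 3 scores of 132 and 1174, and then Grb2 with a sum of 1141. Across the 114 clusters the summed scores of both libraries had a Spearman correlation of 0.61. The ceiling limits the replicate 2 side, since 106 clustered peaks (21.0%) scored 3100 or more, against 20.2% of strong peaks outside.

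**Figure D4:**
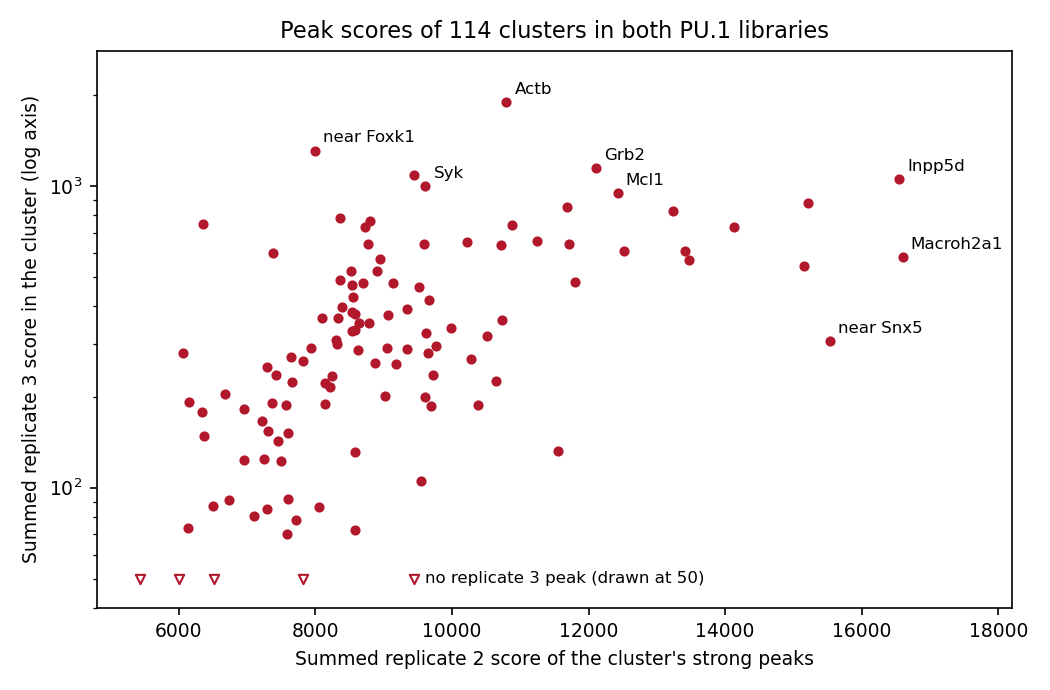
Summed replicate 3 score of all replicate 3 peaks in a cluster (vertical, log axis) against the summed replicate 2 score of its strong peaks (horizontal axis), 1 point per cluster. Triangles are the 5 clusters with no replicate 3 peak; Actb stands highest at 1888, and Macroh2a1 lies farthest right at 16598 with a replicate 3 sum of 581.

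Of 21887 protein-coding genes, the clusters overlapped 135 (0.617%). A cluster counts as overlapping a gene when their spans meet, gaps included. A single gene was met by 59 clusters, 2 or more genes by 28 and none by 27, of which 12 met no annotated gene of any kind. Of the 114 clusters, 22 lay wholly inside 1 protein-coding gene. No gene was met by more than 1 cluster. The genes met had a median length of 21.2 kb, against 17.2 kb for all protein-coding genes.

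Genes of B cell receptor signalling, the cascade that carries antigen and pre-receptor signals through the kinase Syk, made up most of the list genes met by a cluster. They were 6 of 35 (17.1%, exact 95% interval 6.56 to 33.7), against 0.617% of all protein-coding genes. The members were Inpp5d, Ptpn6, Grb2, Cd79a, Syk and Dapp1. The list was drawn up with earlier results of these data known, so the count is not independent support. It also depends on the gap, since with a gap of at most 6.25 kb no member was met. At that gap 0.196% of all protein-coding genes were met. The genes of this list had a median length of 64.6 kb, against 17.2 kb for all protein-coding genes. Longer spans are wider targets for a cluster, and length was not taken into account.

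Among the inhibitory enzymes of the cascade, Inpp5d encodes SHIP-1, a lipid phosphatase that limits PI3K signalling. Its 6 peaks (chr1:87619757-87658748) ran from the annotated start into the gene body and scored 2821, 3100, 2145, 2276, 3100 and 3100 in replicate 2. In replicate 3 they scored 167, 192, none, 76.6, 182 and 432. The start and the 3 peaks at the ceiling were thus found in both libraries, and the single peak without a match was the lowest of the 6 in replicate 2. Ptpn6 encodes SHP-1, a tyrosine phosphatase recruited by inhibitory receptors. Its cluster of 5 peaks (chr6:124711547-124742062) scored 1014, 3100, 2012, 2218 and 2162, in order along the chromosome. In replicate 3 the peak at 3100 scored 113, that at 2218 scored 85.1 and that at 2162 scored 119. The first peak lay at Emg1 and the last beside Grcc10, so 3 of the 5 were within Ptpn6.

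Among the adaptors, Grb2 links tyrosine-phosphorylated receptors to Ras signalling. All 4 peaks of its cluster (chr11:115692437-115713339) were near the ceiling in replicate 2, with scores of 3050, 2855, 3100 and 3100. Replicate 3 gave 203, 279, 160 and 499. The strongest of these lay outside the gene span. Dapp1, an adaptor that binds phosphoinositides, had 4 peaks inside its gene body (chr3:137947181-137964739) with scores of 3202, 1488, 1392 and 1554. Replicate 3 scored 124, 75.6 and 71.9 at those of 3202, 1392 and 1554. The lowest score of any matched clustered peak was 70.1.

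Syk and Cd79a stand nearer the receptor. The Syk cluster (chr13:52570587-52597372) scored 1550, 3100, 2272 and 2689 in replicate 2, and 73.3, 829, 94.9 and none in replicate 3. The first 2 lay outside the Syk span, more than 10 kb from its end, the next at a gene end and the last inside. The peak of 829, the highest in replicate 3, was thus outside the gene. Cd79a encodes a signalling chain of the B cell receptor. Its cluster (chr7:24883646-24905630) stretched from Rps19, a ribosomal protein gene, to Arhgef1, with scores of 3100, 1264, 3100 and 2157. Replicate 3 had the peak beside Rps19 at 192 and the peak at a Cd79a end at 132, both of them at the ceiling in replicate 2.

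B-lineage transcription factor genes held strong peaks about as often, but no cluster met one. A strong peak lay in the span of 27 of 36 of these genes (75.0%) and of 26 of 35 B cell receptor signalling genes (74.3%), against 23.6% of all protein-coding genes. A cluster met 0 of the 36 (0%, upper bound of the exact 95% interval 9.74). The largest group that any strong peak in the span belonged to, peaks beyond the gene included, was a single peak for 15 genes, 2 peaks for 9 and 3 peaks for Ebf1, Ikzf3 and Bcl6. Bcl6 had 1 strong peak in its own span. The 8 strong peaks of Foxp1, spread over 597 kb, belonged to groups of no more than 2. These genes had a median length of 95.2 kb, against 64.6 kb for the signalling genes, and the difference between the lists was not tested. Both lists are longer than all protein-coding genes, with a median of 17.2 kb, and so offer wider targets for a strong peak. With groups of 3 peaks or more, 10 of 35 signalling genes and 3 of 36 transcription factor genes were met, against 1.89% of all genes.

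The remaining lists had few members in clusters. IL-7 and JAK-STAT signalling had 1 of 22 (4.55%, 0.115 to 22.8), Mcl1, which encodes an inhibitor of apoptosis. The cluster's 5 peaks (chr3:95644755-95674922) scored 3100, 2405, 2718, 1101 and 3100 in replicate 2, and 474, 141, 215, none and 113 in replicate 3. Of these, 2 were centred in Mcl1, those at 2718 and 1101, and the last lay nearest Adamtsl4. Counting genes within 5 kb of a cluster, this list had 2 of 22, against 155 of all 21887 protein-coding genes. Myeloid genes had 1 of 36 (2.78%), Tyrobp, the adaptor DAP12. Its cluster crossed the Tyrobp span without a peak in it. Peaks of 1441 and 1547, centred 2.94 and 0.975 kb from a Tyrobp end, were not matched. The matched peak, scored 3100 and 215, lay at Nfkbid, which encodes an atypical inhibitor of NF-kB. Pre-BCR and recombination, TLR and NF-kB signalling, T cell, liver and neuron genes had 0 of 16, 28, 26, 24 and 24. Nfkbid, met by the Tyrobp cluster, was not on the TLR and NF-kB list, so that count depends on which genes were listed. At these list sizes the upper bounds of 12.3% to 20.6% leave room for shares well above that of all genes.

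**Figure D5:**
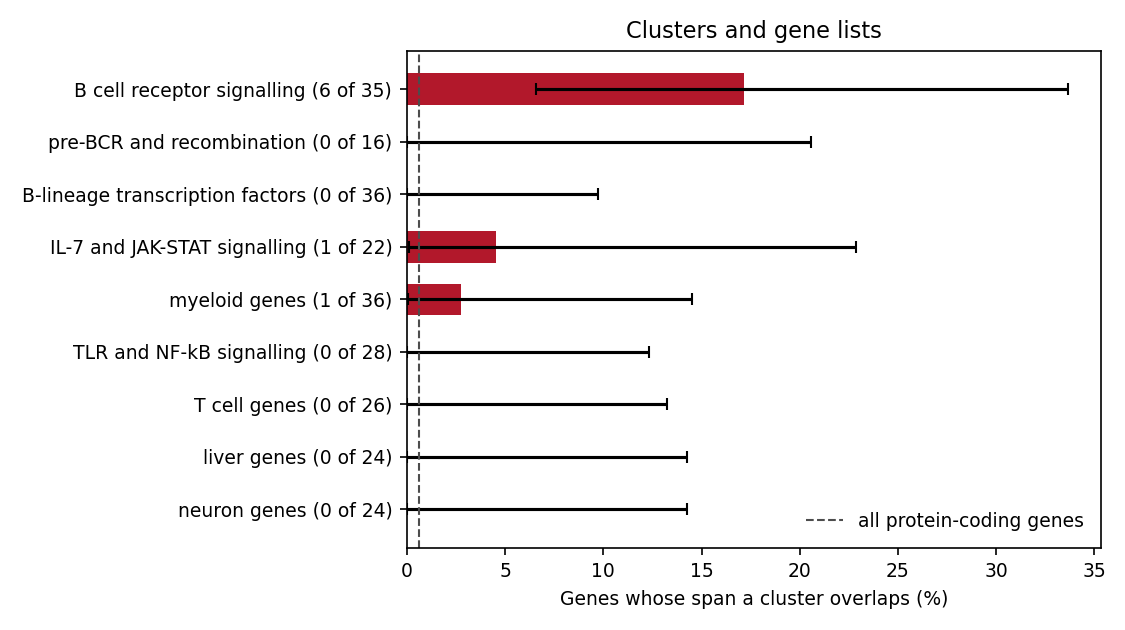
Percent of the genes of each list whose span a cluster overlaps (horizontal axis), with exact 95% intervals and counts beside each name. The dashed line is the 0.617% of all protein-coding genes; B cell receptor signalling stands at 17.1%, and its interval starts at 6.56%.

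Other highly ranked clusters lay at genes outside these lists. Ptpn22, which encodes a tyrosine phosphatase of lymphocytes, shared with Bcl2l15 a cluster of 6 peaks (chr3:103840546-103877962). It scored 2800, 3136, 2676, 1497, 1077 and 1330, with 104, 193, 149, none, 84.3 and 77.7 in replicate 3. Here 2 of the 3 weaker peaks were matched as well. Lcp2 encodes the adaptor SLP-76. Its 6 peaks (chr11:34046457-34073096) scored 2455, 2999, 1012, 1207, 3082 and 1048, and only the 3 highest were matched, at 107, 153 and 219.

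Sla, a Src-like adaptor gene within the span of Tg, the thyroglobulin gene, had the most compact of the clusters of 6 peaks, at 13.99 kb (chr15:66812125-66826113). Scores were 3100, 1049, 1660, 2496, 3100 and 2063, and the pair at the ceiling was matched, at 336 and 231. Spans alone cannot assign these peaks to Sla or Tg. Prkcd and Prkca, both protein kinase C genes, were met by clusters of 5 peaks with 4 matched. Those of the Prkcd cluster (chr14:30607358-30642538), where 2 of the 5 peaks were centred in the gene, scored 191, 159, 93.1 and 215 in replicate 3, and those of Prkca (chr11:108222279-108255405) scored 330, 135, 83.4 and 92.2. The Prkca cluster lay deep inside the gene, 89.0 kb or more from its ends.

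Among the other clusters of the first 15, the one over Crybg2, Cd52, Ubxn11, Sh3bgrl3 and Cep85 (chr4:134092159-134129955) had 4 of 6 peaks matched, the best scored 400 in replicate 3. Cd52 encodes a surface glycoprotein of lymphocytes. Rps6ka4 and Ccdc88b shared 6 peaks (chr19:6840435-6885333) with 3 matched, at 181, 538 and 103, which were the 3 at the ceiling. At Rack1, a scaffold gene of the ribosome, and Trim41 (chr11:48787511-48817910), a single peak of 6 was matched, at 132. The peak at 3100 beside Rack1 was not among the matched ones. A cluster of 5 on chromosome 5 (chr5:118353581-118378247) lay 90.5 kb from Spring1, the nearest protein-coding gene, and had 4 peaks matched at 99.8 to 209.

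Chromosome 16 carried clusters of 6 and 5 peaks near each other. The first (chr16:32108236-32139538), with Cep19 as the nearest protein-coding gene at 0.168 kb, had replicate 3 scores of 86.9, 194, 378 and 218. Its peaks of 378 and 218 were centred nearest an end of Nrros, at 12.75 and 3.78 kb. The second (chr16:32170635-32203290) spanned Bex6 with no peak in it and had scores of 149, 499 and 90.7. The lowest replicate 2 scores were 1352 and 1135, and neither of those peaks was matched.

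Location relative to genes was close to that of other strong peaks. Intergenic sequence held 185 of 504 clustered peaks (36.7%, 32.5 to 41.1) and 36.7% of strong peaks outside clusters, against 41.8% of all replicate 2 peaks. Peaks centred no more than 1 kb from where a protein-coding gene begins or ends made up 12.7% of clustered peaks (9.92 to 15.9) and 14.7% of strong peaks outside (14.1 to 15.4). Protein-coding gene bodies held 40.7% and 40.2%, and other genes 9.92% and 8.45%. Replicate 3 matched 39.1% of clustered peaks at gene ends and 52.4% of intergenic ones, against 35.7% and 49.3% of strong peaks outside clusters.

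Farther from gene ends the sets differed. Of clustered peaks, 46.8% lay within 10 kb of such a gene end (42.4 to 51.3), and of strong peaks outside 40.7% did (39.8 to 41.6). Within 50 kb the shares were 86.5% (83.2 to 89.4) and 74.0% (73.2 to 74.7), and the median distances were 11.1 and 16.0 kb. The intervals do not overlap at either distance, but peaks of 1 cluster lie near the same gene and are not independent, so the intervals are too narrow and the difference was not tested. Promoter windows were overlapped by 13.4% of clustered peaks (10.6 to 16.8) and 14.2% of strong peaks outside clusters.

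In the authors' merged list, each of the 504 clustered peaks lay in an interval, as did 12604 of the 12605 strong peaks outside clusters. The clustered peaks touched 510 intervals, of which 6 held 2 clustered peaks, so neighbours were nearly always kept apart there. Of the clustered peaks, 12 lay over 2 or more intervals. No like count was made for strong peaks outside clusters.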

How the data were processed

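PU.1 ChIP-seq peak lists of 2 induced libraries and a merged list were analysed. Per the submitters' processing notes, Trim Galore, Bowtie and MACS 1.4.1 were used with build mm10. The sources used here give no version of Trim Galore or Bowtie, no read depth and no role for the input library. The deposited score of each peak has no stated normalization between libraries and served only within its own list, apart from rank correlations. The merged list holds a score of 0 throughout and gave positions alone.

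The members and gene lists were chosen with earlier results of these data known. Peaks matched when they shared 1 bp or more. The 95% intervals of shares are exact (Clopper-Pearson) and cover counting error alone. Gene spans came from RefSeq GRCm38.p6 and promoters from its table, which has no entry for some genes. All 247 genes of 9 lists were found. Stitching and matching were tested on simulated data. Named clusters were the first 15 by rank, the 8 with most matched peaks and up to 4 without a match. Up to 6 members of each list met by a cluster were also named. Actb, Bex6, Foxk1, Prex1, Junb, Klhl18, Myadm, Nfkbid, Pik3cg, Foxp1 and Nrros were named after their values were seen. Results at 1 locus are not reported here. Python 3.11.15, pandas 2.3.3 and SciPy 1.17.1 were used.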

Additional observations from a re-analysis of the deposited data

How the results depend on the processing

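No paired analysis was possible because the comparison is within 1 group and rests on no test. The number of clusters follows the rule. A score minimum of 500 gave 489 clusters with 2281 peaks and 590 genes, with 28.0% of peaks matched, 78.3% of clusters matched at 1 peak or more and 0.204% at every peak. A minimum of 2000 gave 13, 54 and 15, with 79.6%, 100% and 46.2%, and 31.5% of peaks intergenic. A gap of 6.25 kb gave 37, 153 and 43, with 41.2% of peaks matched, 29.4% intergenic and 17.0% at gene ends. A gap of 25 kb gave 322, 1525 and 507. With 3 peaks or more there were 441 clusters, 1485 peaks and 414 genes, and 89.3% of clusters were matched at 1 peak or more. With 5 or more there were 32, 176 and 51, and 0% of clusters were matched at every peak. Under these 6 settings the share of matched peaks ran from 28.0% to 79.6% in clusters and from 26.7% to 83.1% outside. With the 6.25 kb gap it was 41.2% in clusters and 46.4% outside.

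With 50% of both peaks required to overlap, 40.7% of clustered peaks were matched. With replicate 3 scores of 100 or more, 31.2% of peaks were matched, 84.2% of clusters at 1 peak or more and 0.877% at every peak. With gene ends widened to 5 kb, 28.2% of peaks were intergenic and 33.1% at ends. Leaving out each library in turn gave 11 to 114 clusters, 45 to 504 peaks, 9 to 135 genes and 36.7% to 44.4% intergenic peaks. The rule does not use replicate 3, so leaving it out returned the main values by construction. Only the values of 11, 45, 9 and 44.4%, from replicate 3 alone, are recomputed. The other 27 of 67 values stayed within 1.5 times the count or inside the interval. Among those 27 are the values without replicate 3, which could not move. A gene list rerun, added after the counts were seen, gave 0 to 13 of 35 B cell receptor signalling genes. The 0 came with the 6.25 kb gap, where 0.196% of all protein-coding genes were met. The 13 came with a score minimum of 500, where 2.70% were met. Transcription factor genes ran from 0 to 4 of 36. The 4 (11.1%) came with that minimum and with the 25 kb gap, where 2.32% of all genes were met.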

Other observations

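The clusters also met non-coding genes: 50 lncRNA genes, 7 miRNA genes, 5 snoRNA genes, 2 snRNA genes and 7 pseudogenes. The miRNA genes included Mir200c and Mir141, which lie inside the Ptpn6 cluster. No annotated immunoglobulin or T cell receptor gene segment lay inside a cluster. No share over all annotated genes of these kinds is given here, so the counts and the absence describe the clusters alone. Over all chromosomes, 504 of 13109 strong peaks were in clusters. Chromosome X held no cluster and 224 strong peaks, fewer than any autosome, of which chromosome 19 had the fewest at 431. Among autosomes the extremes were chromosome 13, with 6.93% of its strong peaks in 8 clusters, and chromosome 12, with 1.54% in 2. These differences were not tested.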
